A study of Mus musculus with 14 samples.

Results

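The comparison described here asked how inguinal fat of transgenic SRA mice changed when the mice received CGP, which activates angiotensin type 2 receptors, in place of saline. It used 7 of the 14 libraries of the series, which were 4 from SRA mice infused with CGP (SRA_CGP) and 3 from SRA mice infused with saline (SRA). They were chosen by their labels alone. All mice were C57BL/6J, and the fat was inguinal, a subcutaneous depot. SRA_CGP held 2 males and 2 females, and SRA held 1 male and 2 females. All 7 mice carried the SRA transgene, which acts by a brain-specific activation of renin-angiotensin signalling. The sources used here do not give the dose, route and duration of the infusion or the ages of the mice. The other 7 libraries came from non-transgenic mice infused with saline (CON, 3 libraries) or CGP (CON_CGP, 4 libraries). They entered the same model to estimate the spread and served for the test of whether the response differed between genotypes.

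Angiotensin II, the effector peptide of the renin-angiotensin system, acts through the type 1 and the type 2 receptor, both G protein-coupled. The type 1 receptor raises blood pressure, thirst and salt retention, and the type 2 receptor opposes many of its actions. In the brain the system raises sympathetic outflow, which in fat drives the breakdown of stored lipid and, in cells able to burn fuel for heat, thermogenesis. Inguinal fat holds white adipocytes that can take on such a heat-producing state in the cold or under adrenergic drive. SRA mice are generally described as carrying human renin driven by a neuronal promoter together with human angiotensinogen, so that the added enzyme is made mainly in neurons. The labels give only the name of the line and its brain specificity.

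Levels were measured by RNA sequencing of whole fat, so that fewer cells of a type and less RNA per cell cannot be told apart. Of 55419 transcripts in the deposited table, 31967 (57.7%) averaged 100 or more across the 14 libraries and were tested, and these held 99.5% of all signal. Transcripts carry UCSC identifiers of the mouse build mm9. The files pair no identifier with a gene name, and 0 identifiers matched the reference tables used here. Transcripts are therefore named by identifier, and markers of fat, gene lists and the transgene were not analysed here. Values below are rescaled values, meaning the authors' normalized values divided by a median-of-ratios factor per library (0.855 to 1.16). Differences are SRA_CGP minus SRA on a log2 scale after adding 1, with the standard error from limma unless a difference of means is stated. The deposited totals were nearly equal (79970748 to 79985973), so that sequencing depth is unknown.

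Several libraries stood apart in ways the groups did not explain. SRA replicates 1 and 2, both female, were nearly alike over the tested transcripts (r = 0.985, across transcripts, which are not independent replicates). The male SRA replicate 3 correlated with them at 0.838 and 0.837, and with the 4 SRA_CGP libraries at 0.831 to 0.929. Within SRA_CGP the correlations ran from 0.79, between male replicate 2 and female replicate 4, to 0.955, between the female replicates 3 and 4. A male set of 12 transcripts was chosen that reached 100 or more in each male, exceeded every female, and fell to 1 or less in at least 1 female, with 49 transcripts for a female set by the mirrored rule. The summed level of the other sex's set, as a percentage of its median in that sex, was above 3% in 6 of the 14 libraries. Among SRA mice these were SRA_CGP replicate 1 (17.1%), SRA_CGP replicate 3 (9.4%) and SRA replicate 3 (7.07%). It was 1.58% in SRA_CGP replicate 4, 1% in SRA_CGP replicate 2, 0.0503% in SRA replicate 1 and 0 in SRA replicate 2. In the other groups CON_CGP replicates 1 (13.9%) and 4 (8.94%) and CON replicate 3 (3.85%) were above 3%. The level thus differed among mice within both SRA groups, and its part in the results below was not tested beyond fits that left out these libraries.

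**Figure D1:**
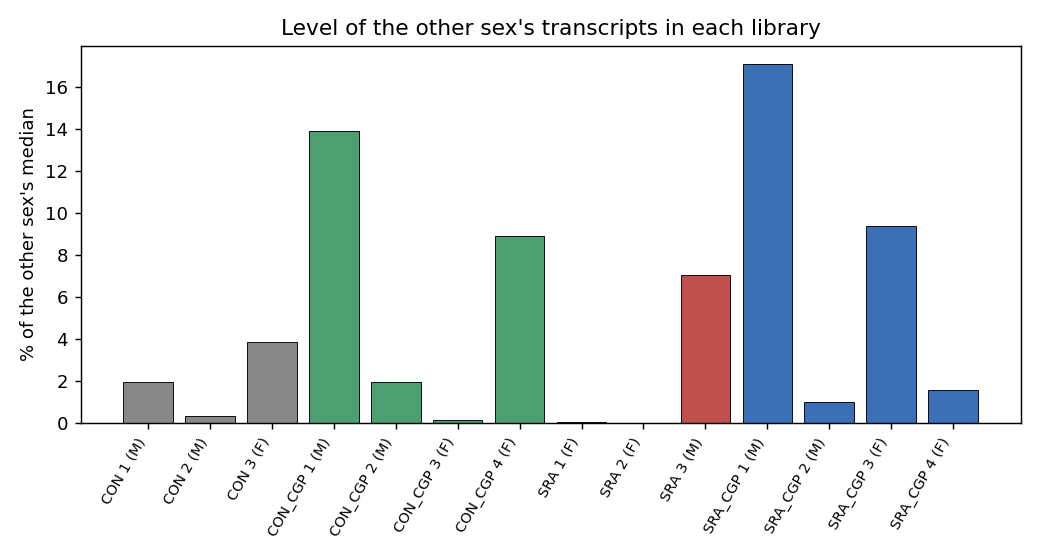
Level of the other sex's transcripts in each library (vertical axis, percent of the median of that set in its own sex; horizontal axis, library with its labelled sex in brackets; bars coloured by group). SRA_CGP replicates 1 and 3 and SRA replicate 3 reach 17.1%, 9.4% and 7.07%, and the female SRA replicates 1 and 2 lie at or near 0.

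No transcript passed the test between CGP and saline in SRA mice after adjustment. limma called 0 of 31967 transcripts (0%) at an adjusted p under 0.05, with 0.727 as the smallest adjusted p. At an unadjusted p under 0.05 there were 2182 transcripts (6.83%), of which 813 (2.54%) were higher and 1369 (4.28%) lower under CGP. Middle values lay near zero, with a median log2 difference of -0.03 and a 5th to 95th percentile range from -0.63 to 0.36 over all transcripts tested. The surplus of lower transcripts followed the scaling: the lower share was 62.7% after median-of-ratios rescaling, 50.4% with the values as deposited and 37.8% after quantile normalization. The count of 2182 dropped to 1195 without SRA_CGP replicate 1 and went up to 3667 without SRA_CGP replicate 3.

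The precision of the contrast bounded the size of most differences taken over both sexes. Opposite differences in females and males can cancel in it, and those within each sex are given below. The 95% interval of the difference lay within a 2-fold change in either direction for 25053 transcripts (78.4%), taken one transcript at a time. The median standard error was 0.2 log2 units, and over 5 equal groups of transcripts by level (quintiles) it ran from 0.28 in the lowest to 0.15 in quintile 4. Point estimates past 2-fold were found for 74 transcripts that were higher under CGP and 498 that were lower. With an unadjusted p under 0.05 these were 41 and 154. The 41 included all 12 transcripts of the male set, which were higher by 2.35 to 4.24 log2 units with the sex term in the model. Summed over those 12, the rescaled value was 12.6 and 0 in the SRA females against 2350 and 395 in the SRA_CGP females, and 27600 in the SRA male. The rule for the male set asked for 1 or less in at least 1 female, which SRA replicate 2 met for all 12. Low values in an SRA female were thus favoured by the choice of the set. The 46 transcripts of the female set that were tested had a median difference of -0.14, and 0 of them had an unadjusted p under 0.05.

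**Figure D2:**
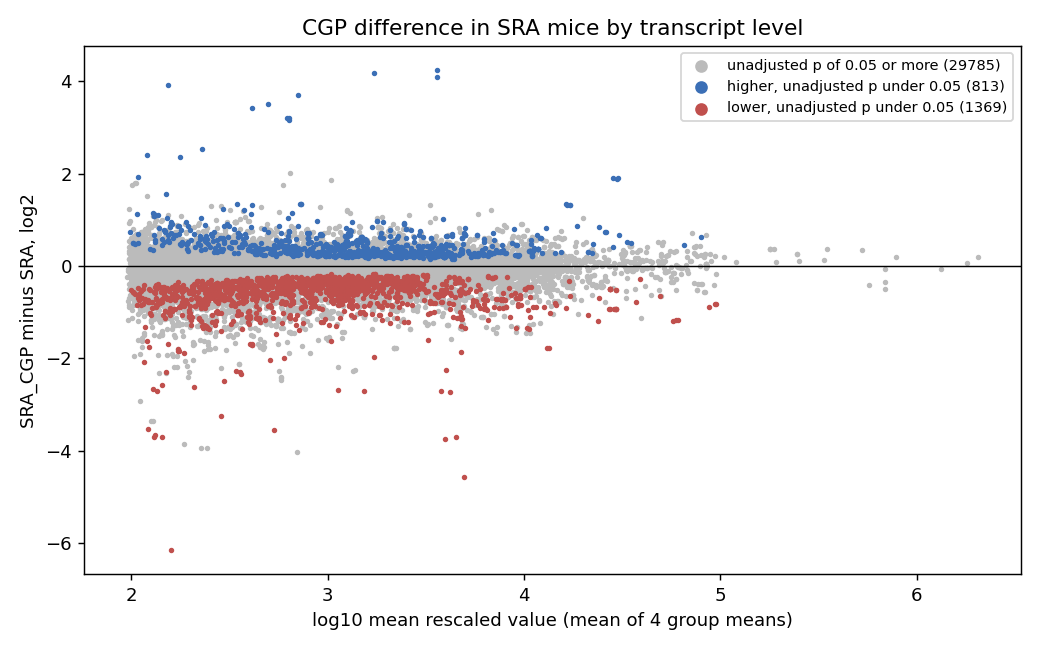
Log2 difference between SRA_CGP and SRA from limma (vertical axis) against the log10 mean rescaled value (horizontal axis), 1 point per tested transcript. Blue and red points are the 813 higher and 1369 lower transcripts at an unadjusted p under 0.05, none of which passed after adjustment, and grey points are the others.

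The sign of the difference leaned with transcript level. In the lowest quintile (means of 94.6 to 299.96) the median difference was -0.1, and it was -0.07, -0.03, 0.01 and 0.03 in the next 4 quintiles in turn. At an unadjusted p under 0.05 the lowest quintile held 94 higher and 289 lower transcripts and the highest quintile 265 higher and 221 lower. Non-transgenic mice showed the same lean for CGP against saline, from -0.07 in the lowest to 0.07 in the highest quintile. SRA_CGP replicate 4 had the lowest median deviation of the 7 libraries in the lowest quintile (-0.1), whereas SRA_CGP replicate 2 had the lowest in the highest quintile (-0.09). The libraries farthest from the rest thus differed between the ends of the scale.

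The transcript with the smallest p was uc012cti.1, which was above 1000 in both SRA females on saline and at 14.2 to 144 in all other libraries. Its rescaled values were 1132, 1718 and 144 in SRA replicates 1 to 3, and 38.5, 21.7, 81.2 and 125 in SRA_CGP replicates 1 to 4. The groups did not overlap, but the male SRA replicate 3 lay only just above the highest SRA_CGP value. The log2 difference was -3.24 ± 0.49 (SE), 9.46-fold lower, with a limma adjusted p of 0.727. Group means were 43.5 ± 37.7 for CON (SD, n = 3) and 42.9 ± 22.1 for CON_CGP (SD, n = 4). The mean was 66.7 ± 46.4 in SRA_CGP (SD, n = 4) and 998 ± 796 in SRA (SD, n = 3). Its overall mean of 243 passed the filter at 100 only through the SRA group, so that a high level in SRA against the other groups was favoured by the filter. An exact 2-sided permutation test over the 7 libraries gave p = 0.0571, the smallest that 35 splits of 4 against 3 allow. Without SRA replicate 2 the log2 difference was -2.87, and without SRA replicate 3 it was -3.84.

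The second transcript lower under CGP, uc009aat.1, differed by -1.05 to -0.8 (log2) with any 1 library left out. Its values were 342, 314 and 386 in the SRA replicates and 162, 177, 232 and 171 in the SRA_CGP replicates. All SRA values lay above all SRA_CGP values, and the male SRA replicate 3 was the highest. The log2 difference was -0.91 ± 0.16 (SE), 1.88-fold lower (limma adjusted p = 0.727, exact permutation p = 0.0571). CON stood at 198 ± 16.2 (SD, n = 3) and CON_CGP at 175 ± 16.3 (SD, n = 4), so that SRA was the high group of the 4. uc009aat.1 belonged to a run of 10 tested transcripts that follow each other in the table. All 10 were lower under CGP at an unadjusted p under 0.05, by -0.91 to -0.5 with a median of -0.55, and in all 10 the groups did not overlap. By their values in every library these 10 formed 5 groups of near copies, so they do not amount to 10 separate measurements.

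The 2 transcripts named as higher under CGP, chosen by smallest p and not by size, had smaller estimates than those named as lower. Larger rises included the male set described above. uc008asf.1 was at 387, 420 and 480 in the SRA replicates and at 658, 628, 546 and 587 in the SRA_CGP replicates. The groups did not overlap, and the difference was 0.46 ± 0.1 (SE), 1.38-fold higher (limma adjusted p = 0.727, exact permutation p = 0.0571). CON lay at 541 ± 38.3 (SD, n = 3) and CON_CGP at 570 ± 77.6 (SD, n = 4), so that SRA was the low group. uc008zhv.2 was at 455, 353 and 233 in the SRA replicates and at 448, 397, 675 and 701 in the SRA_CGP replicates. Its groups overlapped, because the male SRA_CGP values lay below that of SRA replicate 1, a female. The difference with the sex term was 0.81 ± 0.18 (SE; limma adjusted p = 0.727), and the exact permutation test, which holds no sex term, gave p = 0.171.

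**Figure D3:**
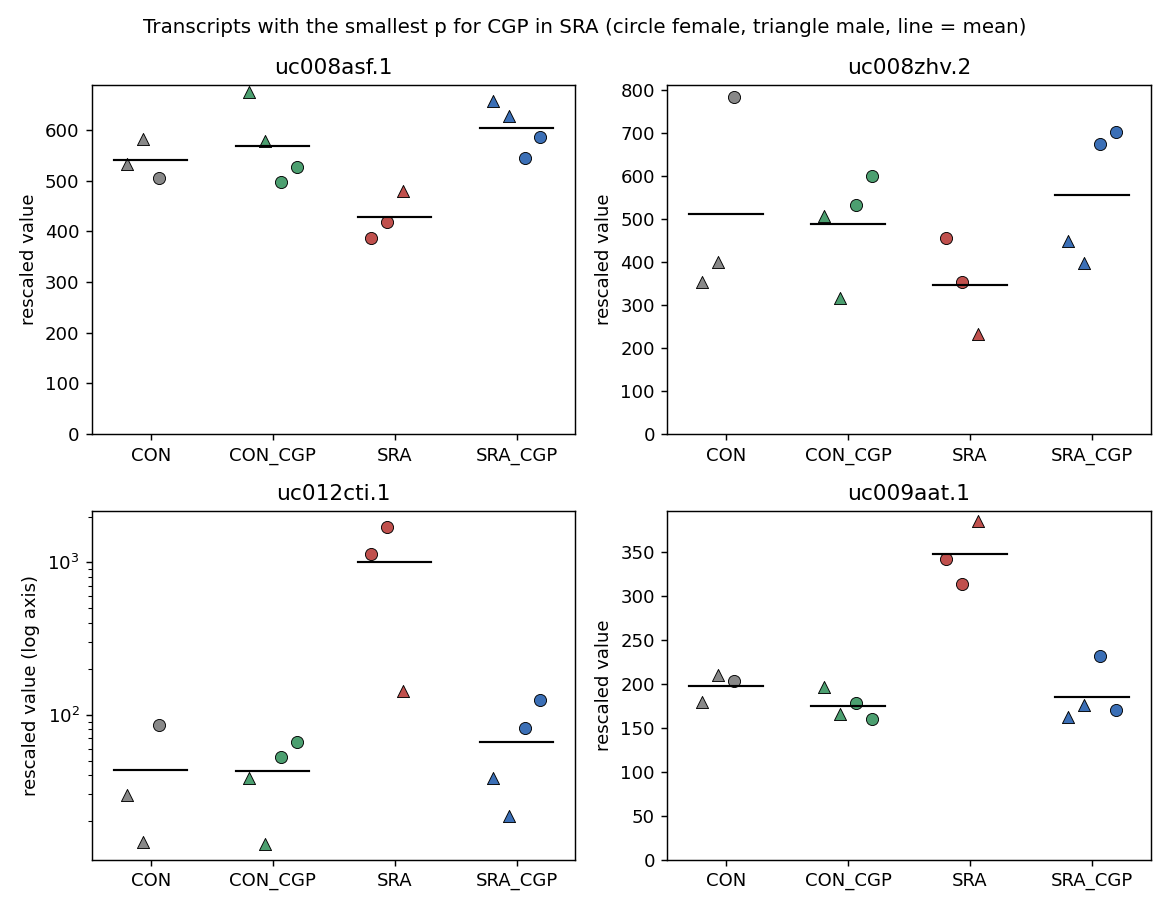
Rescaled values of the 4 transcripts with the smallest p in each direction (vertical axis; log axis for uc012cti.1 and linear axes from 0 for the others) by group, 1 point per library, circles for females and triangles for males, with a line at the group mean. For uc012cti.1 and uc009aat.1 the 3 SRA values lie above all 4 SRA_CGP values, for uc008asf.1 below them, and for uc008zhv.2 they overlap.

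For these 4 transcripts the difference between SRA and CON on saline ran opposite to that of CGP in SRA. The SRA minus CON differences were 3.58 ± 0.53 for uc012cti.1, 0.81 ± 0.17 for uc009aat.1, -0.26 ± 0.1 for uc008asf.1 and -0.76 ± 0.19 for uc008zhv.2 (log2, SE; limma adjusted p from 0.132 to 0.199). Both comparisons use the same 3 SRA libraries, so the opposite signs are not independent of each other. Between SRA_CGP and CON_CGP, a comparison that shares the 4 SRA_CGP libraries with the CGP contrast, the differences were 0.53 ± 0.45, 0.07 ± 0.15, 0.09 ± 0.09 and 0.18 ± 0.16 in the same order (log2, SE; limma adjusted p from 0.738 to 0.877).

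Across all tested transcripts 2000 (6.26%) had groups that did not overlap, with all 4 SRA_CGP values above all 3 SRA values in 987 (3.09%) and below them in 1013 (3.17%). Of these, 1097 also had an unadjusted p under 0.05. Without any difference, 4 and 3 exchangeable libraries separate completely with a probability of 0.0571, so 6.26% is near that share. Among transcripts that did not overlap, differences past 2-fold were few, with 12 higher and 49 lower. In the highest quintile by level 362 were higher and 133 lower, and in the lowest quintile 101 were higher and 208 lower. Of the 20 transcripts with the smallest p, 15 were lower under CGP and the groups did not overlap in 18. A small p in this contrast itself favours groups without overlap, so the 18 are a description. Near copies reduced the 20 to 17 clusters.

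Transcripts with small p often lay side by side in the table. The 2182 formed 1384 runs of consecutive tested transcripts with the same sign, and 1244 of them lay in runs longer than 1. The longest run held 14 transcripts, all lower, by -1.31 to -1.09 log2 units. The groups did not overlap in 2 of those 14. The next longest was the male set of 12 transcripts described above. In all, 10693 of the tested transcripts (33.5%) had a near copy beside them, within 0.1 log2 units in every library, and the 2182 fell into 1823 clusters of such copies. Counts of transcripts are therefore higher than counts of separate measurements.

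The response was then set out within each sex, since 2 of the 3 saline mice were female. Differences of mean log2 values in females (2 against 2 libraries) and in males (2 against the single male SRA replicate 3) had the same sign in 12838 transcripts, 40.2% of those tested. A difference past 2-fold was found in 2298 transcripts in females and in 4053 in males. Both sexes were past 2-fold in the same direction in 69 transcripts and in opposite directions in 1561. The 4 transcripts named above were among those with the same sign in both sexes, at -3.78 in females and -2.27 in males for uc012cti.1, -0.72 and -1.19 for uc009aat.1, 0.49 and 0.42 for uc008asf.1, and 0.78 and 0.86 for uc008zhv.2. A contrast over both sexes selects for a shared sign, so this is a description.

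**Figure D4:**
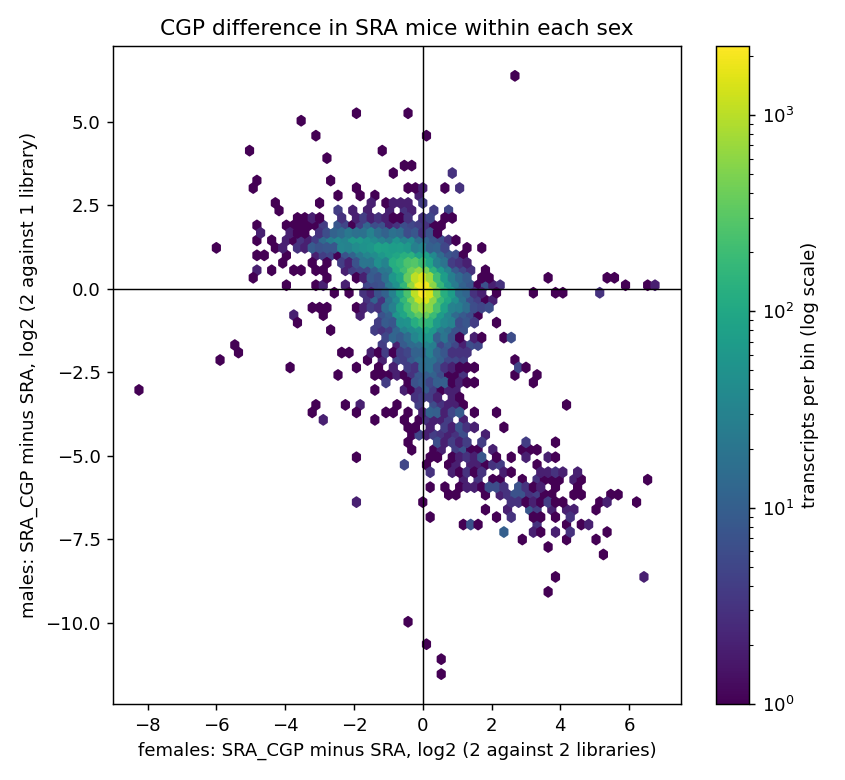
Log2 difference between SRA_CGP and SRA in males (vertical axis, 2 libraries against 1) against that in females (horizontal axis, 2 against 2), with bins coloured by the number of tested transcripts on a log scale. Most transcripts lie near the origin, and one arm reaches to the lower right and another to the upper left, where the sexes differ in sign.

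A pair of sets outlined the arms of that plot, chosen by cuts set after it was seen and therefore given without a test. The lower right arm held 199 transcripts with a female difference above 2 and a male difference below -4. The only male on saline was SRA replicate 3, so its high values against the SRA_CGP males follow from the male cut. Higher values in the SRA_CGP females than in the SRA females follow from the female cut. Their median rescaled value was 7530 in SRA replicate 3, and SRA replicate 3 was the highest of all 14 libraries for all 199. It was 397 in SRA_CGP replicate 1, 644 in SRA_CGP replicate 3, 98.3 in SRA_CGP replicate 4 and 39.6 in SRA_CGP replicate 2. In SRA replicates 1 and 2 it was 28.3 and 30.8, and in the 7 non-transgenic libraries it lay between 8.73 and 74.8. The set was thus abundant in 1 saline mouse, well below that in 2 agonist mice, and low in the rest. These 3 libraries were also those of the SRA mice above 3% for the other sex's transcripts. The order differed, as SRA_CGP replicate 1 had the highest percentage (17.1%) and SRA replicate 3 the lowest of the 3 (7.07%). Non-transgenic libraries above 3%, CON_CGP replicates 1 and 4 and CON replicate 3, had medians of 25.8, 70.9 and 11.2 for the set. The correspondence was not tested.

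The upper left arm held 404 transcripts with a female difference below -2 and a male difference above 1. The order of CGP and saline within each sex follows from these cuts. Their median value was 45.4 and 186 in the female SRA_CGP replicates 4 and 3, against 481 and 686 in the female SRA replicates 1 and 2. In males it was 319 in SRA replicate 3 and 778 and 1287 in SRA_CGP replicates 1 and 2. The non-transgenic libraries ranged from 218 in CON_CGP replicate 1 to 1244 in CON_CGP replicate 3.

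The female and male differences were set against each other with 1 mean per group and sex, a contrast added after the data were seen. limma called 381 transcripts (1.19%), 356 with a response that was more positive in females and 25 with one that was more negative. The male saline group was the single SRA replicate 3, which is assumed to vary like the other mice. Of the 381, SRA replicate 3 was the highest of the 7 SRA libraries in 335 and the lowest in 11. The count was 0 without SRA replicate 1 and 0 without SRA replicate 2, and it ranged up to 1000 without CON_CGP replicate 1. Sex and this 1 mouse cannot be told apart here.

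The smallest p of that contrast belonged to uc008som.1, at 3442 in SRA replicate 3 and between 481 and 761 in the 6 other SRA libraries. Its female minus male response was 2.76 ± 0.21 (log2, SE; limma adjusted p = 0.00884). uc008qql.1 was at 4648 in SRA replicate 3 and at 602 to 1534 in the other 6, with a difference of 3.45 ± 0.3 (limma adjusted p = 0.011). Both showed the high value in that mouse alone. In the opposite direction uc009oog.2 gave -1.37 ± 0.22 (limma adjusted p = 0.0393), with 539 in SRA replicate 3 and 610 to 1091 in the other 6. uc009iah.2 gave -2.54 ± 0.43 (limma adjusted p = 0.0438), at 360 and 430 in the SRA females, 113 and 130 in the SRA_CGP females, 111 in the SRA male and 196 and 206 in the SRA_CGP males. For uc009iah.2 the SRA females stood apart, and the SRA male lay beside the SRA_CGP females.

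The contrast was also fitted among females alone, where CON was a single mouse that adds nothing to the estimate of spread. The median difference over all tested transcripts was -0.02 there, against -0.03 with all libraries. In a fit of the 7 female libraries of all groups limma called 0 transcripts (0%). An unadjusted p under 0.05 was found for 4688 (14.7%), of which 3035 were lower and 1653 higher under CGP. uc012cti.1 again had the smallest p, with a difference of -3.78 ± 0.33 (SE; limma adjusted p = 0.229). uc011xdi.1 differed by -1.67 ± 0.2 (limma adjusted p = 0.229), at 826 and 938 in the SRA females and 318 and 239 in the SRA_CGP females. In males it was not lower under CGP, at 609 in SRA replicate 3 and 1147 and 2394 in SRA_CGP replicates 1 and 2. uc009uga.2 was higher by 2.71 ± 0.28 (limma adjusted p = 0.229), at 158 and 155 in the SRA females against 876 and 1206 in the SRA_CGP females. In males it lay at 446 in SRA and 146 and 47.2 in SRA_CGP. uc008qql.1 was higher in females by 1.26 ± 0.13 (limma adjusted p = 0.229).

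Whether CGP acted differently in transgenic and non-transgenic mice was tested by the interaction of both factors. limma made 0 calls (0%). An unadjusted p under 0.05 was found for 1318 (4.12%), of which 350 were more positive in SRA and 968 more negative. In non-transgenic mice CGP gave 0 calls (0%) and 1415 transcripts (4.43%) at an unadjusted p under 0.05. The smallest p of the interaction in the negative direction was that of uc008hqg.1, at -0.5 ± 0.11 (log2 difference of the responses, SE; limma adjusted p = 0.927), and at -0.32 with the values as deposited. Its values were 2074, 2179 and 1951 in SRA and 1546, 1530, 1776 and 1783 in SRA_CGP, without overlap. Non-transgenic mice moved the other way, from 1482 ± 68.5 in CON (SD, n = 3) to 1724 ± 122 in CON_CGP (SD, n = 4). The response of uc012cti.1 differed by -3.06 ± 0.7 (limma adjusted p = 0.927), with a CGP difference in non-transgenic mice of -0.18 ± 0.49.

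In the positive direction uc009dkm.2 had an interaction of 0.93 ± 0.21 (SE; limma adjusted p = 0.927). Without the 6 libraries above 3% for the other sex's transcripts it was 0.52. The values were 1590, 1454 and 1436 in SRA and 2024, 2833, 1999 and 2042 in SRA_CGP, without overlap. CON stood at 2802 ± 250 (SD, n = 3) and CON_CGP at 2155 ± 332 (SD, n = 4). uc009evp.1 had an interaction of 1.39 ± 0.34 (limma adjusted p = 0.927), and of 0.53 with no sex term. Its values followed sex, at 450 and 360 in the SRA females, 395 and 681 in the SRA_CGP females, and between 55 and 102 in the males of both groups. The groups overlapped (exact permutation p = 0.857 without regard to sex).

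Among the alternatives that kept all 14 libraries, calls for CGP in SRA appeared only without the level filter. With no filter on low values, all of the 55419 transcripts were tested except 7183 at 0 in all libraries. limma then called 32 transcripts, 30 lower and 2 higher under CGP. Of these 31 had a mean under 100 and the other was uc012cti.1 (limma adjusted p = 0.0406). With a filter at a mean of 10 the count was 0. For the 29 lower transcripts with a mean under 100, all 3 SRA values were above all 4 SRA_CGP values, and the highest of the 14 libraries was SRA replicate 2 in 23 and SRA replicate 1 in 6. Summed over all 31, the rescaled value was 3088, 4817 and 361 in SRA replicates 1 to 3 and 35.4, 16, 33.8 and 28.1 in SRA_CGP replicates 1 to 4. In the 7 non-transgenic libraries the sum lay between 10.7 and 52.6. The contrast did not compare these libraries, but they entered its estimate of spread, where steady values favour a small p. The set was therefore seen in each saline-infused transgenic mouse, with the male lower than the females, and low in the other 11 mice. It was chosen by the contrast it describes and by a mean under 100 over the 14 libraries. Low values outside SRA were therefore favoured by the choice. No fold is given because many of its values are at or near 0.

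**Figure D5:**
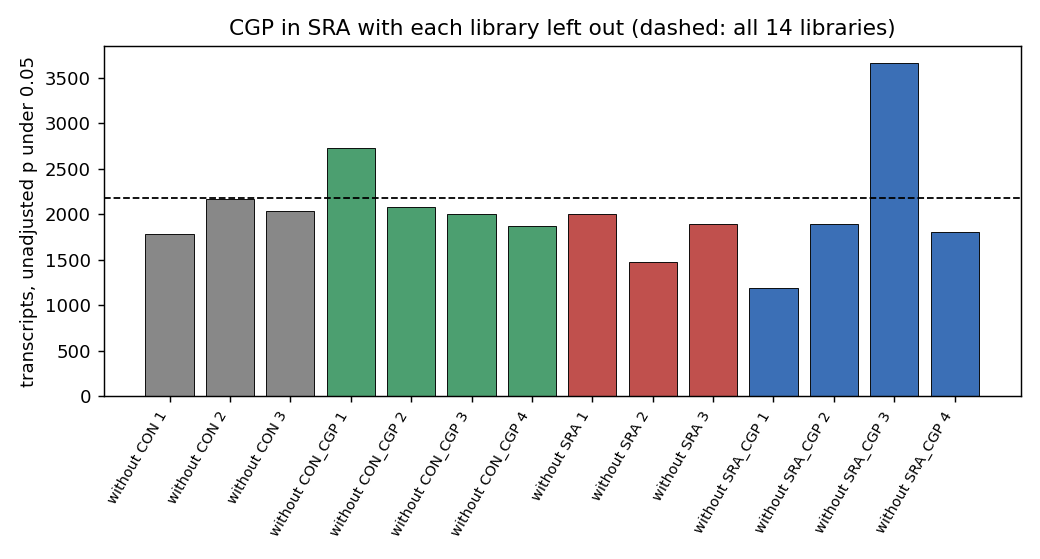
Transcripts at an unadjusted p under 0.05 for CGP in SRA (vertical axis) when each of the 14 libraries was left out (horizontal axis; bars coloured by group), with a dashed line at the 2182 found with all libraries. The count falls to 1195 without SRA_CGP replicate 1 and reaches 3667 without SRA_CGP replicate 3.

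Leaving out SRA_CGP replicate 3 brought 5 calls, all lower under CGP, which were near copies of each other, within 0.0385 log2 units of the first in every library. The first, uc007rvm.2, was at 2253, 2728 and 3242 in SRA and at 1573, 1407, 2598 and 967 in SRA_CGP. The value of 2598 in SRA_CGP replicate 3 lay inside the SRA range and the other 3 below it. With all libraries the difference was -0.87 ± 0.28 (log2, SE; limma adjusted p = 0.727), and without SRA_CGP replicate 3 it was -1.24 (limma adjusted p = 0.0275). uc007rvl.2, another of the 5, then stood at -1.23 (limma adjusted p = 0.0275). They were named after their values were seen.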

How the data were processed

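The authors deposited a table of scores, named as normalized counts per the file headers, rounded to whole numbers and scaled to nearly equal totals. FastQC, Bowtie, edgeR and build mm9 are listed per the submitters' processing notes, and the sources used here give no versions, roles, counting or normalization. Low values were looked over for a step worth 1 read and none was seen, though no exhaustive search was run, so depth is unknown and count models were not used. The number in each column name matched 1 sample description, which left 0 columns unmapped.

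Values were rescaled by median of ratios over the 39907 rows without zeros, and transcripts averaging 100 or more over the deposited values were analysed as log2(value + 1). The test was limma 3.58.1 in R 4.3.3 on all 14 libraries, with group and sex terms, robust moderation that followed mean level, 2-sided p-values and Benjamini-Hochberg adjustment over 31967 transcripts (threshold 0.05). The test was checked on simulated data. Each library was taken as 1 mouse, and p-values measure the spread between these samples. For each comparison, 2 transcripts a direction were named by smallest p, skipping near copies. The filter, scaling, tests and transcripts were chosen with earlier results of these data known. Planned gene lists and cell type markers were not used, as no identifier had a name. Alternatives covered scaling, filter, pseudocount, model terms, near copies, females alone and each library left out.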

Additional observations from a re-analysis of the deposited data

Results flagged for a closer look

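The contrast of the female and male CGP differences in SRA gave 381 limma calls. Its male saline group was the single SRA replicate 3, the highest or lowest of the 7 SRA libraries in 346 of them, so that sex and this mouse cannot be told apart.

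In a check of 36 sets of 4 values for a value far from the others, 1 was found. Chance gives about 1 in every 20 sets, so 1 among 36 is no more than chance gives. The value was that of uc009dkm.2, at 2832.5 in SRA_CGP replicate 2, against 1999 to 2042 in the other SRA_CGP mice.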

How the results depend on the processing

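With no calls for CGP in SRA or for the interaction as analysed, the count for CGP in SRA became 32 with no filter on low values, where 1 of the 4 named transcripts passed, and ran from 0 to 5 with 1 library left out (5 without SRA_CGP replicate 3). The interaction had 0 calls in all 26 alternatives run for it. Transcripts at an unadjusted p under 0.05 numbered 2182 as analysed, 3329 with no filter and 4688 in females only, and ranged from 1195 (without SRA_CGP replicate 1) to 3667 (without SRA_CGP replicate 3). Their lower share moved from 62.7% to 50.4% as deposited and 37.8% with quantile normalization, and lay between 51.4% (without SRA_CGP replicate 2) and 68.6% with 1 library left out. The median of all transcripts turned from -0.026 to 0.047 and 0.031 under the same scalings. Counts of non-overlapping transcripts grow as libraries are left out. They went from 2000 to between 2368 and 5427 with 1 SRA or SRA_CGP library left out. The count was 15951 in females only and 10462 without the 6 libraries above 3%, both with 2 against 2 libraries. Fewer libraries separate completely more often without any difference, so the counts with libraries left out cannot be set against the 2000. Leaving out those 6 gave 0 limma calls for CGP in SRA and 2016 transcripts at an unadjusted p under 0.05. For the interaction, 1318 at an unadjusted p under 0.05 became 2224 with no filter, 2540 in females only and 589 without those 6. It ranged from 723 (without CON replicate 3) to 2231 (without SRA_CGP replicate 3), and was also past 1.5 times off without CON replicate 1 (817), CON_CGP replicate 1 (871) and CON_CGP replicate 2 (2149). The causes were not tested.

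The 381 calls between the sexes became 149 as deposited and 630 with a filter at a mean of 10. They ranged from 0 to 1000 with 1 library left out, at 85 without CON replicate 1 and without CON replicate 2, 989 without CON_CGP replicate 2, 115 without CON_CGP replicate 3, 112 without CON_CGP replicate 4, 668 without SRA_CGP replicate 1, 70 without SRA_CGP replicate 2 and 52 without SRA_CGP replicate 3.

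Same-numbered SRA and SRA_CGP libraries deviated together at r = 0.0933, 0.701 and 0.63 for replicates 1 to 3. The labels state no pairing, and each same-numbered pair held a male and a female. The deviations came from a fit with group and sex terms. A pairing and a CGP response that differs by sex therefore cannot be told apart. The criterion asked for 0.1 in each pair, and replicate 1 alone fell below it. SRA replicate 1 correlated best with SRA_CGP replicate 2, whereas SRA replicates 2 and 3 correlated best with their own numbers. With the replicate block the CGP count was 0, with 2728 at an unadjusted p under 0.05, and the interaction had 2168. The 4 named transcripts kept their sign in all 27 alternatives each, at limma adjusted p from 0.0406 to 0.995. Count models with DESeq2 and edgeR were not run.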
